A study of Rattus norvegicus with 3 samples.

Results

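B cell receptor and identity genes were examined in blood mononuclear cells of exercised and resting rats. They comprise 9 genes, namely the receptor component Cd79b, the surface proteins Cd22, Ms4a1 and Cr2, the kinases Syk, Btk and Blk, the adaptor Blnk and the transcription factor Pax5. All rows of the deposited matrix whose gene symbol is one of these names were taken, which gave 12 probe sets for 8 of the genes, out of 31099 probe sets and 13892 genes in all. No row carried the symbol Pax5, and that gene was not analysed here. The study hybridised RNA of peripheral blood mononuclear cells from 2-month-old male Sprague-Dawley rats to the Affymetrix Rat Expression Array 230 2.0, in which a probe set reads the 3' part of a transcript. Groups that ran downhill or uphill on a treadmill were set against a control group, to ask how the slope of running alters blood cell mRNA, with 1 array each and no genetic change or drug named in the labels. How many rats an array stands for, how long they ran and when blood was drawn are not stated in the labels. The genes were chosen by their names and with the intensity differences of B cell genes between these same 3 arrays in view. There is no replicate, so every difference below describes 3 arrays, carries no p-value and has no measured error between animals.

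The B cell receptor is a membrane immunoglobulin joined to a heterodimer of Cd79a and Cd79b, whose cytoplasmic tails carry the signal. When antigen binds, Src family kinases such as Blk and Lyn phosphorylate the tails, Syk docks there, and Syk then phosphorylates the adaptor Blnk, which brings Btk to phospholipase C gamma. Cr2 (CD21) is a complement receptor that lowers the threshold of this signal, Cd22 is an inhibitory lectin that raises it, and Ms4a1 (CD20) is a membrane protein found on mature B cells. Syk and Btk also serve other blood cells, Btk in monocytes and platelets and Syk in both of these and in natural killer cells.

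The 3 arrays were close in overall level, with a median intensity of 219 on the downhill, 217 on the uphill and 229 on the control array. Probe sets called present made up 52.4%, 54.4% and 53.7% in the same order. The ratio of 3' to 5' actin probe sets, a measure of RNA integrity and labelling, was 2.87 downhill, 2.68 uphill and 2.39 in control. The same ratio for GAPDH was 1.20 downhill, 1.32 uphill and 1.18 in control, so that the 2 ratios put a different array highest. Their part in the differences below was not tested. T cell and monocyte markers were well detected, although Cd4 and Cd163 were not called present on any array. Genes entered the counts of a comparison if the brighter array read at least 353, the median of all gene values. For a gene with several probe sets the brightest one stands for it.

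Cd79b, the signalling partner of the membrane immunoglobulin, gave an intensity of 2003 on the downhill, 2915 on the uphill and 2569 on the control array. It was lowest after downhill and highest after uphill running. On the log2 scale it differed by -0.36 between downhill and control, by 0.18 between uphill and control, and by -0.54 between downhill and uphill, which is 1.46-fold lower downhill. That was the largest difference of any counted member in any of the 3 comparisons, and 3.05% of the 7174 genes counted between downhill and uphill lay at least as far in this direction. Bulk mononuclear cell RNA does not separate a change in B cell number, in RNA per B cell or in RNA from other cells. This holds for Cd79b and for the genes below. The probe set aligns to chr10:95703594-95706217 on the minus strand of Rnor3.4, an assembly whose gene models were not used here. The array's annotation notes possible cross-hybridisation for the Cd79b and Ms4a1 probe sets and for 1 of Cr2.

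Cd22, the inhibitory lectin, read 1438 downhill, 1695 uphill and 1682 in control. Only the downhill array was set apart, at a log2 difference of -0.23 from control and -0.24 from uphill. Between uphill and control the difference was 0.01, and its sign turned under quantile normalization (-0.036) and cyclic loess (-0.024). The probe set lies at chr1:85923706-85924330, minus strand, Rnor3.4.

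Ms4a1, the CD20 antigen, went the other way from Cd79b and Cd22 on the downhill array. Its intensity was 3241 downhill, 3267 uphill and 2582 in control. Both running arrays were above the control array, 1.26-fold downhill and 1.27-fold uphill. The 2 running arrays differed by -0.01 on the log2 scale, a sign that also depended on the scaling (0.0052 with quantile normalization, 0.022 with cyclic loess). The probe set lies at chr1:213763453-213764169, minus strand, Rnor3.4.

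Cr2, the complement receptor, was dim and stayed below the floor for counting, although all 4 of its probe sets were called present on every array. The brightest, 1392233_at, read 161 downhill, 192 uphill and 205 in control. The dimmest, 1381328_at, read 61.5 downhill, 74.8 uphill and 132 in control. All 4 probe sets had the same order, lowest downhill and highest in control. They disagreed on the size, since the log2 difference between downhill and control ran from -1.11 to -0.30 and that between uphill and control from -0.82 to -0.09. The 1381327_a_at and 1392233_at probe sets were designed on the same expressed sequence tag and share an alignment, chr13:111083479-111087720 on the minus strand of Rnor3.4, so they are not separate evidence.

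**Figure D1:**
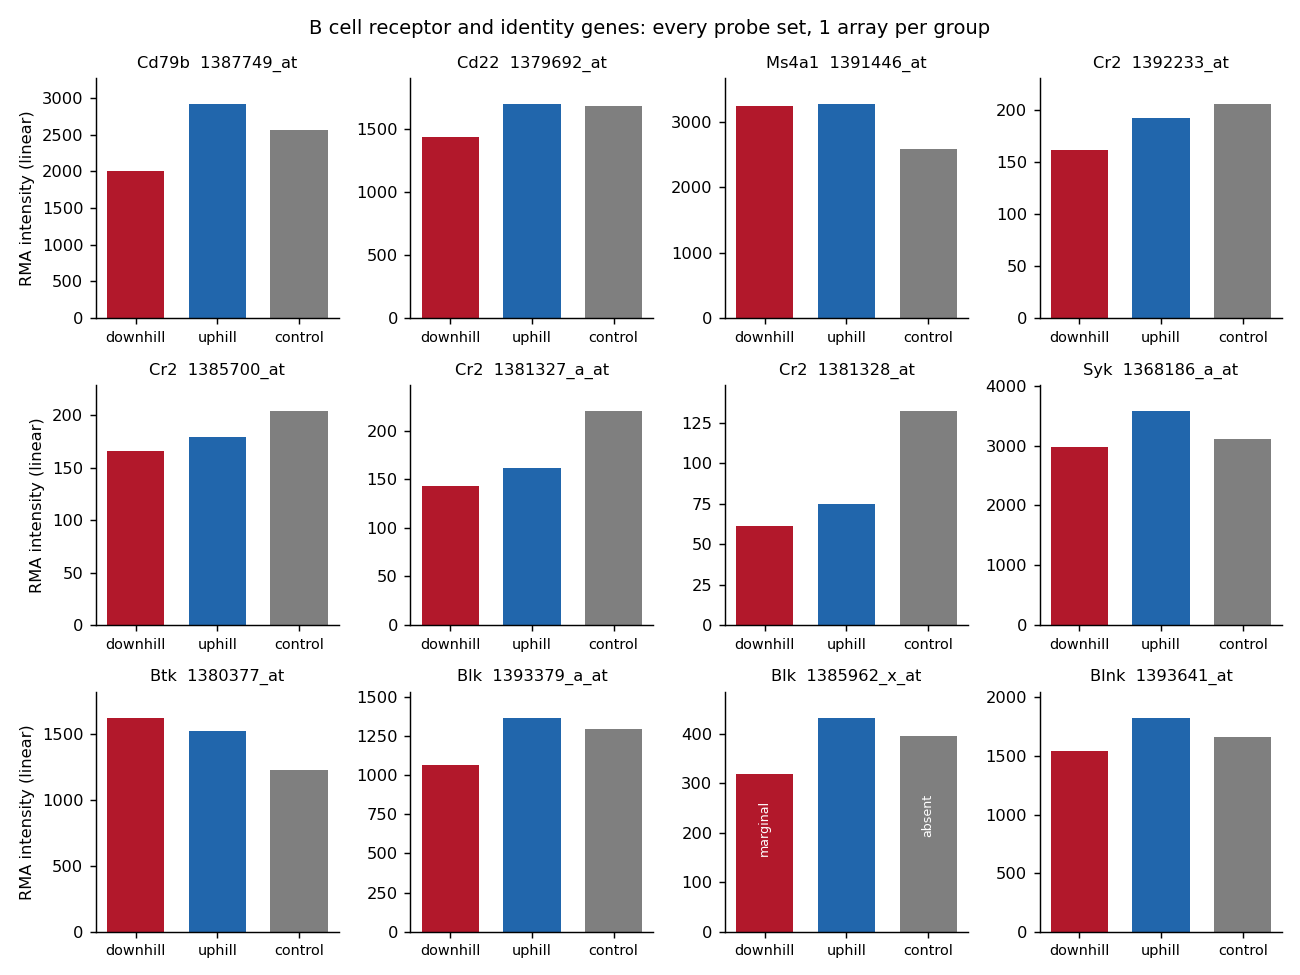
Intensity (linear scale from 0, one panel per probe set) of the 12 probe sets of 8 B cell genes on the downhill, uphill and control arrays, with 1 array per bar. Probe sets cannot be compared with each other in height. Cd79b, Cd22, Syk, Blk and Blnk have their lowest bar downhill, Ms4a1 and Btk their lowest bar in control, and the 4 Cr2 panels their highest bar in control.

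Among the signalling members, Blk, a Src family kinase largely restricted to B cells, read 1065 downhill, 1366 uphill and 1291 in control. Downhill was the low array, at a log2 difference of -0.28 from control and -0.36 from uphill. A second Blk probe set, 1385962_x_at, read 319 downhill (marginal call), 433 uphill (present) and 396 in control (absent). It had the same order, but its name marks it as one that can bind other transcripts, and no fold is given for it. The first probe set aligns to chr15:42643580-42643946 on the minus strand of Rnor3.4.

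Blnk, the adaptor that links Syk to Btk, read 1545 downhill, 1826 uphill and 1658 in control. The downhill array was again lowest and the uphill array highest, with log2 differences of -0.10 between downhill and control, 0.14 between uphill and control and -0.24 between the 2 running arrays. Syk, the kinase that docks on Cd79a and Cd79b, read 2971 downhill, 3579 uphill and 3115 in control. Its log2 differences were -0.07, 0.20 and -0.27 in the same order of comparisons. Relative to the median of the T cell markers, the downhill differences of Blnk and Syk from control turned to 0.025 and 0.058. Blnk aligns to chr1:246091334-246091626 and Syk to chr17:18440671-18498006, both on the minus strand of Rnor3.4.

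Btk, the kinase whose loss in humans blocks B cell development, was the one counted member that was brightest on the downhill array. It read 1619.8 downhill, 1522 uphill and 1223 in control. Both running arrays exceeded control, 1.32-fold downhill and 1.24-fold uphill, as they did for Ms4a1. The log2 difference between downhill and uphill was 0.09. The probe set lies at chrX:121998566-121999008, minus strand, Rnor3.4.

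The promoters of 5 members are in the RefSeq table of the GRCr8 build, and 4 are shown because they stand for 3 patterns of intensity seen above. Blnk and Cd22 were lowest downhill, Cr2 was highest in control, and Btk was lowest in control. Each line gives the 250 bases before the annotated start, 5' to 3' on the strand of the gene. Capitals mark a match on either strand to one of 4 motifs of B cell gene control, which were chosen after the sequences had been read. They are the octamer ATGCAAAT bound by Oct factors with Pou2af1, GAGGAA as a core bound by PU.1, CCCNNGGG for Ebf1, and CAGGTG as an E-box of E2A.
Blnk (chr1:249770534-249770783, minus strand): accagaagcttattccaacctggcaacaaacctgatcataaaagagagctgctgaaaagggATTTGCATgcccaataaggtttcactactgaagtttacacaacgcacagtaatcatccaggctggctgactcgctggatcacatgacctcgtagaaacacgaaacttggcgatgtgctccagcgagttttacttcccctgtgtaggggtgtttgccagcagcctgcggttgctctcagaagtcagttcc
Cd22 (chr1:95259731-95259980, minus strand): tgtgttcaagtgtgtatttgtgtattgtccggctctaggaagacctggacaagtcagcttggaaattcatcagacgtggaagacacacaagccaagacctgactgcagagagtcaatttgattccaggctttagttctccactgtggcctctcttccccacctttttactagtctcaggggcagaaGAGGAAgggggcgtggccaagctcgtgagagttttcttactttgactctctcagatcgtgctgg
Cr2 (chr13:109244507-109244756, minus strand): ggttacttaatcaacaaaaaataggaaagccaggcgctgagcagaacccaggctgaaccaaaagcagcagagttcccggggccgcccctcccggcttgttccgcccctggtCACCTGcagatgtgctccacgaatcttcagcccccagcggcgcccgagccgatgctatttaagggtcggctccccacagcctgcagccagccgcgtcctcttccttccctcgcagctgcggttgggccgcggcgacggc
Btk (chrX:102055144-102055393, minus strand): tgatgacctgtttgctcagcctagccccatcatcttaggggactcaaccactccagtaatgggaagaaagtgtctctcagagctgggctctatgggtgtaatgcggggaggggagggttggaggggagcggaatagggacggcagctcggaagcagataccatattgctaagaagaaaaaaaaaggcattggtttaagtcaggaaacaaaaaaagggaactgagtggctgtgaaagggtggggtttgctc
The octamer occurred in the Blnk promoter, beginning 189 bases before the start, and in 1.56% of 33469 promoters of the same length. GAGGAA occurred in the Cd22 promoter, 64 bases before the start, in that of Syk, 62 bases before it, and in 23.3% of all promoters. CAGGTG occurred on the opposite strand in the Cr2 promoter, 139 bases before the start, and in 15.9% of all promoters. CCCNNGGG, found in 10.8% of all promoters, matched none of the 5, and the Btk window held none of the 4 motifs. These matches are letters in a window and were not measured as binding.

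Taken by count, 7 of the 8 measured members reached the floor and Cr2 did not. No counted member reached a 1.5-fold difference in any comparison. Over all counted genes that size was reached by 5.7% between downhill and control, 6.46% between uphill and control and 4.43% between downhill and uphill. At a lower threshold, with the brighter array at least 25% above the dimmer one, Ms4a1 and Btk were higher and Cd79b lower between downhill and control, where 12.1% of all genes were higher and 11.6% lower by that much. Ms4a1 alone was that much higher between uphill and control (13.2% of all genes). Cd79b and Blk were that much lower between downhill and uphill (11.3% of all genes). Probe sets of one gene disagreed by amounts of similar size. Over the 1250 genes with a second bright probe set, the log2 difference between downhill and uphill disagreed between probe sets by a median of 0.18, with a 95th percentile of 0.64.

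By direction alone, 6 of the 7 counted members were lower downhill than uphill, against 53.9% of all counted genes, and the exception was Btk. Of the 6, Ms4a1 changed sign under quantile normalization, cyclic loess and relative to T cell markers. All 7 were higher on the uphill than on the control array, against 54.5% of all genes, with Cd22 changing sign under quantile normalization and cyclic loess. On the downhill array 5 of 7 were lower than in control, against 50.7%. The median log2 difference of the 7 was -0.24 between downhill and uphill (all counted genes -0.03), 0.18 between uphill and control (0.03) and -0.10 between downhill and control (-0.01). With Cr2 included and no floor, the 8 members had medians of -0.25, 0.16 and -0.16, and all 13892 genes had medians of 0.01, -0.01 and -0.02.

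The members thus had 3 combinations of sign against control. Cd79b, Cd22, Blk, Blnk and Syk were lower downhill and higher uphill than control, except that Cd22 turned uphill under quantile normalization and cyclic loess and that Blnk and Syk turned downhill relative to the T cell markers. That combination was found in 17.6% of the 7173 genes counted in both comparisons. Ms4a1 and Btk were higher on both running arrays, as were 35.9% of those genes. Cr2 was lower on both, as were 33.7% of those genes, a set that leaves out Cr2 because it lay below the floor. The 2 comparisons share the control array, so a high or low control value moves both differences together.

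**Figure D2:**
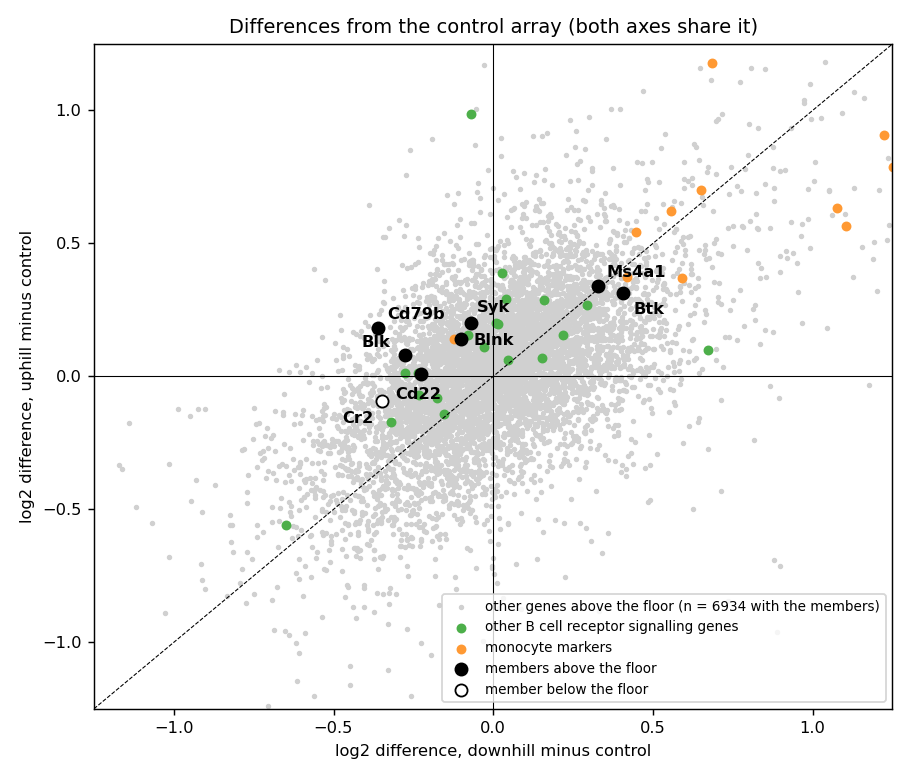
Log2 difference of each gene from the control array, downhill on the x axis and uphill on the y axis, for 6934 genes above the floor in all comparisons (grey), members (black, with Cr2 open because it was below the floor), other receptor signalling genes (green) and monocyte markers (orange). The dashed line marks equal differences, and 58 genes lie outside the axes. Cd79b, Blk, Cd22, Blnk and Syk lie left of the vertical line at values from -0.36 to -0.07, and Ms4a1 and Btk lie beside the lower monocyte markers. Cd22 is on the horizontal line, where its sign depends on the scaling, and relative to T cell markers Blnk and Syk would lie right of the vertical line.

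Of the other genes of B cell receptor signalling, 20 of 27 listed were counted. Between downhill and uphill 16 of the 20 were lower (14 with quantile normalization or cyclic loess, 13 relative to T cell markers). Of all counted genes 53.9% were lower in that comparison. The log2 differences of the 20 had a median of -0.14. Uphill, 15 were higher than control (54.5% of all counted genes), with a median of 0.10. Between downhill and control 10 were higher and 10 lower. Pik3cd, the leukocyte catalytic subunit of phosphoinositide 3-kinase, was the only one past 1.5-fold between downhill and uphill, where 2.27% of all genes were that much lower. It read 3890 downhill, 8088 uphill and 4085 in control, and the uphill array stood alone. Its second probe set read 697 downhill, 1133 uphill and 1025 in control, which is lower downhill than uphill as well but places the uphill array near control. Fyn, a Src family kinase, was also lower downhill than uphill (log2 difference -0.36). Sh3bp2, an adaptor of Syk signalling, was higher downhill by 0.57, with 549 downhill, 369 uphill and 344 in control. Lyn, the Src kinase that opens the cascade, was higher by 0.08.

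Of 16 listed inhibitors of the pathway 12 were counted, and 8 were lower downhill than uphill (median -0.13), against 53.9% of all counted genes. The lipid phosphatase Inpp5d (SHIP1) differed by -0.30 and the ubiquitin ligase Cblb by -0.29. The inhibitory receptor Lilrb4 was higher downhill by 0.47, and the adaptor Dok1 by 0.25. None of the 12 reached 1.5-fold in any comparison.

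Among 9 counted B lineage transcription factors of 18 listed, 4 were lower and 5 higher downhill than uphill, and with median centring 5 were lower and 4 higher. Ebf1, which acts with Pax5 in specifying B cells, read 722 downhill, 944 uphill and 847 in control. Pou2af1, the Oct coactivator of B cells, read 1358 downhill, 1726 uphill and 1603 in control. Both were thus lowest downhill and highest uphill, the order of Cd79b and Blk, with log2 differences between downhill and uphill of -0.39 and -0.35. Id3, an antagonist of E2A, was 0.98 higher downhill than uphill (680.2 downhill, 346 uphill and 366 in control). Bcl6, the germinal centre repressor, was highest in control, at 1755 downhill, 1479 uphill and 2297 in control.

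Of 22 listed B cell surface and homing genes 15 were counted. Of these, 10 were lower downhill than uphill (median -0.09), against 53.9% of all counted genes. Vpreb3, a chaperone of immunoglobulin light chains, read 900.2 downhill, 1456 uphill and 1002 in control. Fcer2 (CD23), the low affinity IgE receptor of mature B cells, read 645 downhill, 985 uphill and 802 in control. These were the 2 genes past 1.5-fold lower, with log2 differences of -0.69 and -0.61, against 2.27% of all genes. Higher downhill than uphill were Ly86 (0.36), the partner of the Toll-like protein Cd180, and Cd83 (0.33), an activation marker. Relative to the T cell markers, 7 of the 15 were lower. For the signalling, inhibitor, factor and surface lists alike, the cells that gave the RNA were not measured, whichever way a gene differed.

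Immunoglobulin transcripts, the product of the B lineage, were read by 14 probe sets, found through their gene titles after the values had been seen. Of the 13 called present on all arrays, 12 were lower downhill than uphill, 11 were higher uphill than control and 11 were lower downhill than control. Their median log2 differences were -0.40, 0.32 and -0.14 in that order. Among all counted genes the shares in those directions were 53.9%, 54.5% and 50.7%. The count between downhill and uphill was 12 under each scaling, while that between downhill and control was 8 relative to the T cell markers. Of the 13, 6 carry more than 1 gene symbol and others read the same chain, so they are not independent. Of 10 immunoglobulin genes listed by symbol, 3 had a probe set of their own and 2, Igha and Jchain, were counted.

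For immunoglobulin heavy chain 6 (Igh-6) the probe set 1388272_at read 2985 downhill, 5456 uphill and 3789 in control, and 1388166_at read 3079 downhill, 4205 uphill and 3368 in control. Both were lowest downhill and highest uphill, as was Cd79b, the partner of membrane immunoglobulin. For the gamma-2a heavy chain, 1370394_at read 1958 downhill, 6439 uphill and 2233 in control, a 3.29-fold gap between uphill and downhill. The other gamma-2a probe set, 1384271_at, read 2655 downhill, 3539 uphill and 3013 in control, a gap of 1.33-fold. The 2 probe sets shared the order of the arrays and not the size. The alpha heavy chain Igha differed by -0.21 between downhill and uphill. The joining chain Jchain, which links secreted IgM and IgA, differed by -0.11 and was highest in control.

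The one exception was a lambda light chain probe set, 1388277_at, at 1432 downhill, 1271 uphill and 780 in control, the order of Btk. The other lambda probe set, 1370967_at, read 6081 downhill, 8008 uphill and 6402 in control, and the kappa probe set 14225 downhill, 17629 uphill and 14170 in control. For these 2 light chain probe sets the uphill array was high, and the downhill and control arrays were close together.

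**Figure D3:**
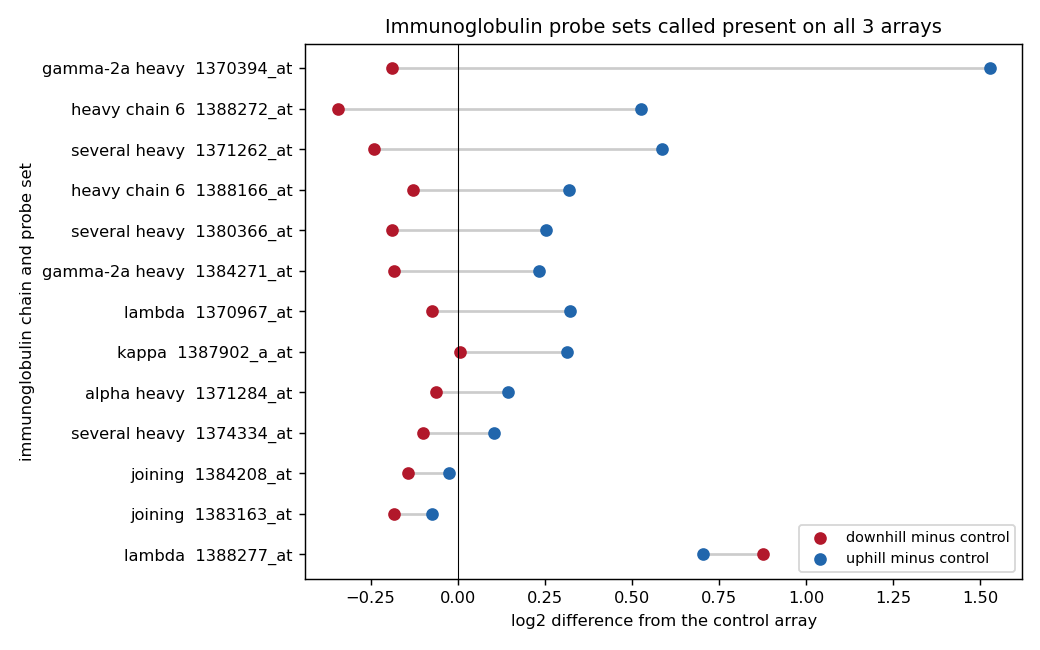
Log2 difference from the control array (x axis) for the 13 immunoglobulin probe sets called present on all 3 arrays (rows, named by chain and probe set), downhill in red and uphill in blue. The uphill point lies right of the downhill point in 12 of 13 rows, and the lambda probe set 1388277_at in the bottom row is the exception.

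Markers of other blood cells differed between these arrays too. All 15 counted monocyte markers of 18 listed were higher on the uphill and 14 on the downhill array than in control, with median log2 differences of 0.63 and 1.08. Their summed intensity over the 18 was 96140 downhill, 89807 uphill and 52473 in control, and Cd163 was not called present on any array. Natural killer and cytotoxic markers were higher as well, 12 of 13 downhill (median 0.35) and 11 of 13 uphill (0.24), with a sum of 44510 downhill, 43287 uphill and 37868 in control. The part of these cells in the values of the members was not tested. Without Syk and Btk, the other 5 counted members had medians of -0.23 between downhill and control, 0.14 between uphill and control and -0.24 between downhill and uphill.

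Of 22 listed T cell markers 19 were counted, of which 13 were lower downhill than control (median -0.13). Uphill, 10 were lower than control (-0.02), 7 with median centring (0.06), 13 with quantile normalization (-0.08) and 12 with cyclic loess (-0.07). Between downhill and uphill 13 were lower (-0.10), 14 with median centring and 11 with quantile normalization or cyclic loess. Their sum was 61227 downhill, 64605 uphill and 65265 in control. Of all counted genes 50.7% were lower downhill than control and 53.9% lower downhill than uphill. Relative to the T cell median the members' difference between downhill and uphill was -0.15, and that between downhill and control became 0.025. Plasma cell markers were split between the running arrays, with 6 of 9 higher downhill than uphill (median 0.03) and 5 of 9 with median centring. The 2 that differed by 25% or more, Txndc5 (-0.41) and Mzb1 (-0.33), were both lower downhill. Of all counted genes 11.3% were that much lower. Sdc1, just under that size, was higher downhill (0.30). Txndc5, Mzb1 and Sdc1 were picked after their values had been seen. Xbp1, the secretory factor of plasma cells, read 3214 downhill, 3070 uphill and 1995 in control. Markers of 3 other cell types were, like most members, lower downhill than uphill. They were the neutrophil markers for 6 of 6 counted (median -0.90), the erythroid markers for 7 of 8 (-1.67) and the platelet markers for 9 of 9 (-0.14), the last for 7 with quantile normalization and 6 relative to T cell markers. Neutrophil markers summed to 16295 downhill, 33371 uphill and 36265 in control, and 7 of 7 were lower downhill than control (-1.17). Erythroid markers summed to 3602 downhill, 9462 uphill and 4291 in control, with 6 of 8 higher uphill than control (1.55). Platelet markers summed to 84980 downhill, 95006 uphill and 100166 in control, and 9 of 9 were lower downhill than control (-0.31). The part of these cells in the difference of the members between downhill and uphill was not tested either. Of 9 dendritic cell markers 3, Flt3 among them, were counted against control, with medians of 0.12 downhill and 0.25 uphill. Over all 5 with a probe set and no floor, the medians were -0.02 and -0.09, and 3 were lower in each comparison. Flt3 and Batf3 were not called present on any array.

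**Figure D4:**
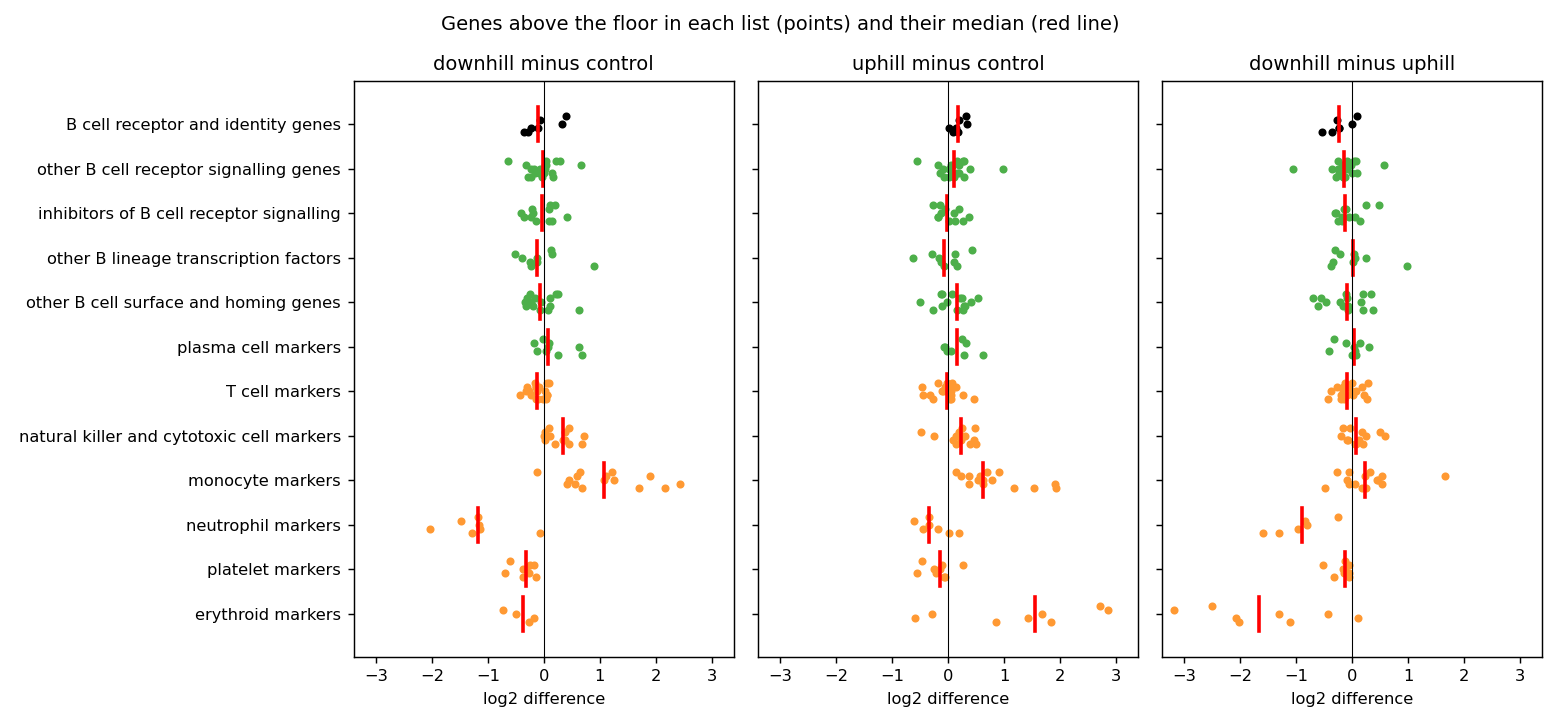
Log2 difference of each counted gene (points) and list median (red line) for the members (black), other B lineage lists (green) and other blood cells (orange), for downhill minus control, uphill minus control and downhill minus uphill. The members spread from -0.54 to 0.41 over the 3 panels, while monocyte medians reach 1.08 and the erythroid median is 1.55 for uphill minus control.

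The pattern of the counted members was then set beside that of all genes. The likeness was the distance, in log2 units, between a gene's pair of differences from control (downhill, uphill) and the median pair of the 7 members, -0.10 and 0.18. Of 6249 genes outside the lists that were called present on all arrays, the closest 5 were the cytokine receptor kinase Jak1 (distance 0.0066), Znrf2 (0.0077), the microRNA processing enzyme Drosha (0.011), Ankzf1 (0.012) and the lipid phosphatase Inppl1 (0.012). Jak1 read 7390 downhill, 8946 uphill and 7893 in control. The distances rest on 3 arrays. The median pair took its downhill value from Blnk and its uphill value from Cd79b, so closeness of the members to it is partly built in. Cd79b itself lay farther from the median pair (0.26) than 33.7% of those genes, Ms4a1 (0.46) than 71.4% and Btk (0.52) than 79.1%. Blk and Cd22 lay farther than 22.6% and 24.6%, and Syk and Blnk than 0.96% and 1.2%. The median pair thus does not describe Ms4a1 and Btk.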

How the data were processed

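Peripheral blood mononuclear cells from 2-month-old male rats were measured with 1 array each for the downhill, uphill and control groups. Per the labels' protocols, cells came from 2 ml of a mixture whose makeup is not given, and 100 ng of RNA was labelled with biotin. The deposited intensity values were made by the authors with RMA, per the submitters' processing notes, and lie on a linear scale. No software version is stated in the labels. The series' own value table matched the matrix in each of its 93297 intensity cells, within 1e-06, and was set aside.

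Intensity was converted to log2 here. Of 31099 probe sets, 19628 carried 1 gene symbol, 800 several (none of them a member) and 10671 none. Symbols were updated through Entrez numbers (19192 matched). The probe set with the highest mean stood for a gene. The members, lists and alternatives were chosen with earlier results of these data known. A single array per group allows no test, so genes past a 1.5-fold difference were counted, with a difference of 25% and one of 2-fold as alternatives. Named were all members with every probe set, the 2 genes farthest each way between downhill and uphill in each other B lineage list, up to 2 per other cell type, and the 5 genes nearest the members. Genes outside this rule are marked in the text as picked from their values. The count at 2-fold, though not that at 1.5-fold, was tested on simulated data. Other alternatives were median centring, quantile normalization, cyclic loess (limma 3.58.1, R 4.3.3, span 0.7), an offset of 50, differences relative to T cell markers, averaging the probe sets of a gene and other floors. Tables were handled in pandas 2.3.3. The number of arrays limits the precision.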

Additional observations from a re-analysis of the deposited data

Results flagged for a closer look

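Of the members, 5 differed from control in opposite directions on the running arrays, lower downhill and higher uphill, although Cd22 turned uphill under quantile normalization and cyclic loess, and Syk and Blnk turned downhill relative to the T cell markers. The log2 difference between downhill and uphill was -0.54 for Cd79b, -0.36 for Blk, -0.27 for Syk, -0.24 for Blnk and -0.24 for Cd22. The difference was not tested, since each group is 1 array. Opposite signs of this kind were found in 17.6% of all counted genes, and the reverse combination in 12.7%.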

How the results depend on the processing

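No paired analysis was possible because each group has 1 array, and for the same reason no array could be left out. Lowering the threshold from 1.5-fold to a difference of 25% gave 3 members between downhill and control, 1 between uphill and control and 2 between downhill and uphill. The counts stayed at 0 in the other alternatives run, among them 2-fold, no floor and a floor at the 75th percentile (963). With no counted member past 1.5-fold, the 2-fold threshold, the offset of 50 and the higher floor could give no other count. The offset of 50 keeps every sign, and the floor at the 75th percentile kept the same 7 members. Neither could therefore turn the median of the members, and averaging probe sets left it unchanged. In the other alternatives run that median kept its sign, with 1 exception. Relative to the T cell markers it was 0.025 between downhill and control. That setting moved the median of all genes by 0.13 in that comparison. It also turned Syk (0.058) and Blnk (0.025) between downhill and control and Ms4a1 (0.084) between downhill and uphill. Quantile normalization turned Cd22 between uphill and control (-0.036) and Ms4a1 between downhill and uphill (0.0052), and cyclic loess turned the same (-0.024 and 0.022). Of 144 values of single members under the alternatives, 7 changed sign. The 24 with the offset of 50 could not do so, nor could probe set averages of members with 1 probe set. For Cr2, the mean of its 4 probe sets gave a downhill difference from control of -0.59 and an uphill one of -0.39, in place of -0.35 and -0.09. The first is past 1.5-fold, but Cr2 was kept out of that count because it lay below the floor. The medians without a floor, with the higher floor and without Syk and Btk were added after seeing the data. Differences as small as these cannot be set against a spread between animals.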

Other observations

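Several B lineage genes were picked here after their values had been seen. The IgM receptor Fcmr read 3524 downhill, 5177 uphill and 4343 in control, and the B cell protein Fcrla read 1184 downhill, 1632 uphill and 1225 in control. Their log2 differences between downhill and uphill were -0.55 and -0.46, next in size to those of Vpreb3 and Fcer2 among the surface genes. Rasgrp3, a Ras activator downstream of phospholipase C gamma, was low on both running arrays, at 1666 downhill, 1769.6 uphill and 2609 in control. Bcl11a, a B lineage factor, had the same order as Cr2, at 313 downhill, 365 uphill and 446 in control.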
